A study of Mus musculus with 24 samples.

Results

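The genes described here are 37 parts of the machinery that writes, erases and reads DNA methylation and repressive histone marks, measured in brain and liver of newborn mice produced by sperm injection or by cloning. They were taken as every array probe whose gene name, or current symbol of its transcript, was among the 37 names: 14 writers (DNA methyltransferases with their maintenance factors, the Polycomb enzymes and the histone H3 lysine 9 methyltransferases), 14 erasers (histone deacetylases) and 9 readers and other factors. The 37 genes were represented by 58 of the 41174 probes of the array, which carried 27845 gene names in all.

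The study measured 24 single-colour Agilent arrays, 4 for each of 3 groups in each tissue, and its title concerns reprogramming errors in serial recloning. The controls (NC) came from intracytoplasmic sperm injection (ICSI), CC animals were clones made from cumulus cells, the somatic cells around the oocyte, and G20 animals were cumulus-cell clones of generation 20 of serial cloning. All animals were female neonates, with (C57BL/6 x DBA2) x 129/Sv parentage, and no treatment was labelled. All G20 arrays carried the source number G20-1, so the labels show neither which G20 brain and liver came from the same animal nor whether the arrays of a tissue came from separate animals, although the design text speaks of 4 G20 neonates. For G20 a p-value is thus read against the variation among arrays, and part or all of that variation could be technical.

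After fertilisation or nuclear transfer, DNA and histone marks of the incoming nucleus are largely reset while imprinted marks have to be kept. DNMT1, guided by UHRF1 to newly replicated DNA, copies methylation to the daughter strand, whereas DNMT3A and DNMT3B, aided by DNMT3L, add new methylation. Polycomb repressive complex 2 methylates histone H3 at lysine 27, EHMT1, EHMT2, SETDB1 and SUV39H1 methylate lysine 9, and deacetylases remove acetyl groups from histones and other proteins. Deacetylase inhibitors are in use to raise the success of mouse cloning, and ZFP57 with TRIM28 protects imprints in the early embryo.

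Signal is given throughout as the log2 of the scanner's processed intensity minus the 75th percentile of the same array, so a difference of 1 is a 2-fold difference, and levels are compared only within a probe. Differences are given ± standard error (SE), with 4 arrays in each group, and a gene was called when the Benjamini-Hochberg adjusted p from limma, adjusted over all genes tested, was under 0.05. Each group and tissue lay on a slide of its own (6 slides), and effects of slide and of group cannot be told apart. NC and G20 were scanned together in each tissue, liver and brain in separate sessions, and both CC tissues in another session 221 days after the earliest, and for CC within a tissue the scan session cannot be told apart from the group. The share of probes well above background was 62.4% to 63.9% on CC brain arrays against 68.1% to 70.6% on the other brain arrays, and 53.6% to 56.4% on CC liver arrays against 57.7% to 62.9% on the other liver arrays. The tissue labels were borne out by 12 neuronal markers, whose summed signal relative to the 75th percentile was 195 to 239 in brain and at most 3.11 in liver, and by 11 measured hepatocyte markers at 741 to 2651 in liver and at most 3.75 in brain. In bulk tissue, fewer cells of a type and less RNA per cell cannot be told apart.

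Of the 37 members, 35 were tested in brain, 34 in liver and 35 between tissues, after a filter that required the 4 arrays of some group all to read a probe well above background. Dnmt3l, the catalytically inactive partner of the de novo methyltransferases, was well above background on 1 of 12 brain arrays and 1 of 12 liver arrays. Its signal was -7.49, -7.28, -6.78 and -6.24 in NC, -5.58, -5.55, -5.76 and -5.24 in CC, and -6.82, -6.43, -7.10 and -6.93 in G20 brain. Liver values were -6.07, -5.54, -6.32 and -5.67 in NC, -4.89, -4.76, -4.74 and -5.07 in CC, and -4.90, -5.85, -5.29 and -3.93 in G20. The array above background was an NC array in brain and a G20 array in liver, and no difference was tested.

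Dppa3, a maternal factor that protects methylation in the zygote, was well above background on 0 of 24 arrays. Its signal was -7.48, -7.55, -7.08 and -6.90 in NC, -6.20, -5.85, -6.02 and -6.23 in CC, and -6.96, -7.08, -7.20 and -6.83 in G20 brain. Liver arrays read -6.20, -6.09, -6.62 and -6.29 in NC, -5.61, -6.06, -5.39 and -5.61 in CC, and -6.34, -7.14, -5.95 and -6.57 in G20. No array measured it, so no difference was tested. Zfp57, which binds methylated imprinting control regions, was well above background on 12 of 12 brain arrays and on 3 of 12 liver arrays (1 NC, 2 G20 and 0 CC), and was not tested within liver. No member probe was saturated on any array, and 45 of the 58 were well above background on all 24 arrays.

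Most members differed between brain and liver. In NC, 16 of 35 were higher and 15 lower in brain than in liver, against a background of 89.1% of all 19881 genes called (43.2% higher, 45.8% lower). In CC 18 were higher and 13 lower (background 84.5%, 41% higher and 43.5% lower), and in G20 17 were higher and 15 lower (background 89.1%, 43.4% higher and 45.8% lower). The shares of members called, 88.6%, 88.6% and 91.4%, were near the backgrounds, and the median size of the difference was 0.789, 0.885 and 0.707 among members against 1.61, 1.19 and 1.62 among all genes. In all 3 groups, 13 members were higher and 12 lower in brain, while 34.9% and 38.2% of all genes were. The 13 include Zfp57, which passed the filter through brain alone, and Sirt6, which no CC liver array and 1 NC liver array read well above background. By role, 7 of 13 writers were lower and 2 higher in brain in all 3 groups, whereas 8 of 14 erasers were higher and 3 lower, and of 8 readers 3 were higher and 2 lower. With arrays centred on their median, 11 members were higher and 17 lower in NC, 15 and 17 in CC, and 9 and 16 in G20. Arrays of the tissues overlapped among the called members for Ezh2, Hdac7 and Trim28 in NC, Hdac5 in CC, and Ezh2, Ehmt1 and Mbd3 in G20. The comparison within CC lay in a single scan session, and those within NC and G20 spanned sessions. Brain and liver arrays were fitted as independent, although NC and CC tissues share numbered sources, so the SE and p-values of these comparisons ignore any pairing.

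**Figure D1:**
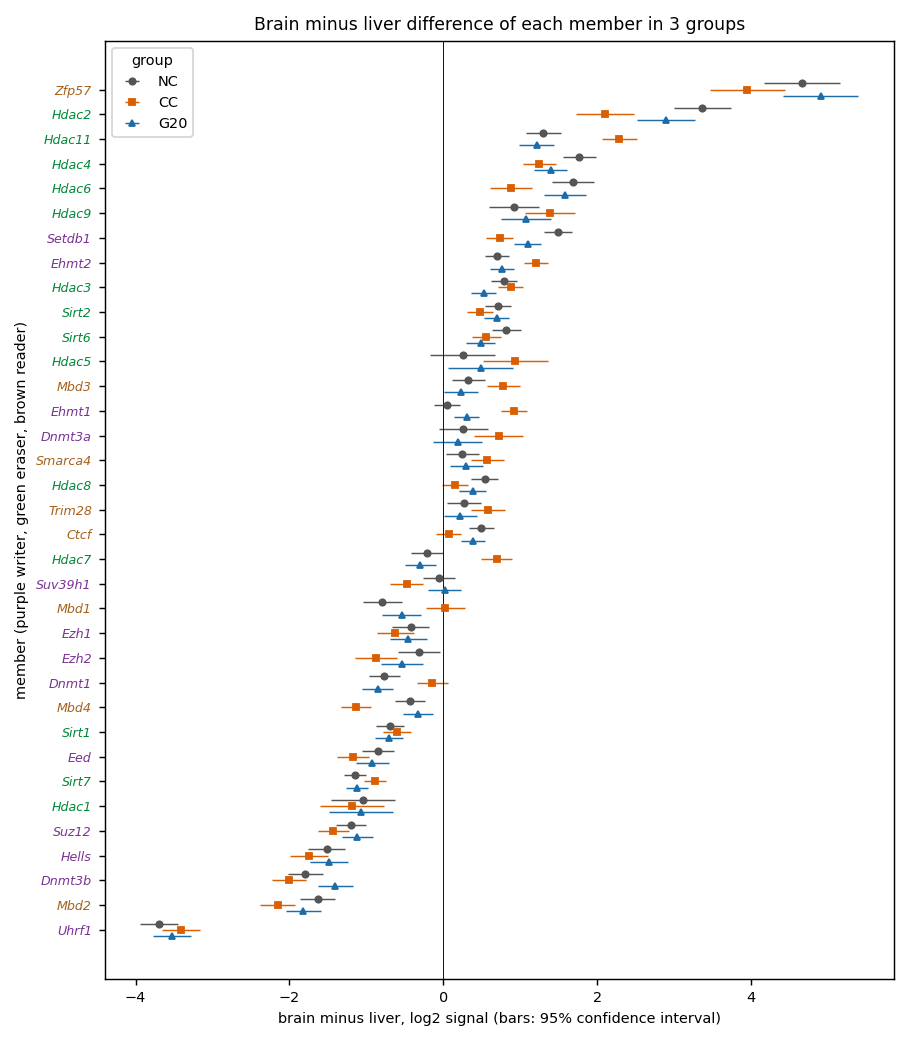
Brain minus liver difference of log2 signal (x axis) for the 35 members tested between tissues (y axis), in NC, CC and G20, as points with 95% confidence intervals from limma over 24 arrays. Zfp57 stands at the brain end and Uhrf1 at the liver end in every group, and 7 of 13 writers are on the liver side in all 3.

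Uhrf1, the factor that recognises hemimethylated DNA behind the replication fork, had the largest liver excess of the members. Its probe at chr17:55956943-55957002 (mm8) read 0.03, -0.23, -0.42 and -0.05 in NC, 0.19, 0.36, 0.03 and 0.24 in CC, and 0.05, -0.06, 0.24 and -0.04 in G20 brain. Liver values were 3.52, 3.54, 3.70 and 3.34 in NC, 3.71, 3.68, 3.68 and 3.37 in CC, and 3.29, 3.71, 3.69 and 3.59 in G20. Every liver array was above every brain array, with a difference of -3.69 ± 0.12 in NC, -3.41 ± 0.12 in CC and -3.52 ± 0.12 in G20 (brain minus liver), which is 12.9-fold, 10.6-fold and 11.5-fold. The other Uhrf1 probe gave -3.88 ± 0.13, -3.41 ± 0.13 and -3.87 ± 0.13 in the same order.

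Hells, a chromatin remodeler required for normal DNA methylation, was also higher in liver. Its signal was -1.60, -1.85, -1.89 and -1.78 in NC, -2.36, -2.24, -2.25 and -2.26 in CC, and -1.70, -1.94, -1.41 and -1.76 in G20 brain. Liver arrays read -0.21, -0.27, -0.21 and -0.37 in NC, -0.39, -0.52, -0.55 and -0.65 in CC, and -0.61, -0.09, -0.15 and 0.00 in G20. The tissues did not overlap in any group, and brain minus liver was -1.52 ± 0.12 in NC, -1.75 ± 0.12 in CC and -1.49 ± 0.12 in G20.

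Dnmt3b, a de novo methyltransferase, was higher in liver as well, with brain minus liver at -1.79 ± 0.11 in NC, -2.01 ± 0.11 in CC and -1.40 ± 0.11 in G20. Its signal was -1.91, -2.30, -2.33 and -2.10 in NC, -2.10, -1.90, -2.11 and -2.04 in CC, and -2.13, -2.13, -2.08 and -2.15 in G20 brain. Liver values were -0.29, -0.43, -0.37 and -0.36 in NC, -0.07, -0.11, 0.00 and 0.06 in CC, and -0.90, -0.38, -0.63 and -0.97 in G20. Brain arrays read at most -1.90 and liver arrays at least -0.97. The summed signal of 18 proliferation markers was also higher in liver, at 436 to 575 against 35.2 to 67.9 in brain. Singly, 18 of 18 were lower in NC brain than in NC liver, against 45.8% of all genes. The part of dividing cells in the liver excess of Uhrf1, Hells and Dnmt3b was not tested.

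Dnmt1, the maintenance methyltransferase, showed a smaller liver excess. Its probe at chr9:20657931-20658299 read 1.22, 1.02, 1.06 and 1.11 in NC, 1.53, 1.54, 1.45 and 1.40 in CC, and 1.13, 1.04, 1.12 and 1.04 in G20 brain. Liver arrays read 1.86, 1.84, 1.82 and 1.97 in NC, 1.80, 1.81, 1.55 and 1.34 in CC, and 1.71, 1.90, 2.13 and 2.004 in G20. Brain minus liver was -0.77 ± 0.10 in NC and -0.85 ± 0.10 in G20, both called and without overlap, and -0.14 ± 0.10 in CC (adjusted p = 0.173), where the tissues overlapped.

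Dnmt3a, the other de novo methyltransferase, had no single tissue pattern, and its 3 probes disagreed. The probe at chr12:3912604-3912663 (A_52_P30497) was higher in brain, by 2.06 ± 0.08 in NC, 1.34 ± 0.08 in CC and 1.94 ± 0.08 in G20. The probe at chr12:3908241-3908300 (A_52_P169048), assigned to the same transcript, was lower in brain, with a difference of -0.89 ± 0.08, -0.64 ± 0.08 and -1.26 ± 0.08. The third probe (A_52_P76146, chr12:3906882-3907663), assigned to a different transcript, gave 0.26 ± 0.15, 0.72 ± 0.15 and 0.19 ± 0.15. Which transcripts or exons each probe measures was not tested.

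The array values show that the disagreement among Dnmt3a probes exceeded the spread within groups. A_52_P30497 read 0.34, 0.47, 0.46 and 0.34 in NC, -0.75, -0.63, -0.68 and -0.63 in CC, and 0.32, 0.30, 0.13 and 0.28 in G20 brain. Liver values were -1.56, -1.76, -1.71 and -1.61 in NC, -2.16, -1.96, -1.84 and -2.07 in CC, and -1.67, -1.80, -1.50 and -1.77 in G20. A_52_P169048 read -2.14, -2.25, -2.24 and -2.30 in NC, -1.99, -1.84, -1.69 and -2.13 in CC, and -2.25, -2.15, -2.27 and -2.13 in G20 brain. Its liver values were all above its brain values. They were -1.25, -1.31, -1.36 and -1.45 in NC, -1.29, -1.26, -1.21 and -1.34 in CC, and -1.05, -0.94, -0.83 and -0.95 in G20. A_52_P76146 read -0.81, -0.51, -0.76 and -0.65 in NC, 0.11, 0.17, -0.03 and 0.11 in CC, and -0.21, 0.07, -0.97 and -0.45 in G20 brain. Its G20 brain arrays spread from -0.97 to 0.07, wider than those of NC or CC. Liver arrays read -0.85, -0.98, -1.01 and -0.94 in NC, -0.32, -0.76, -0.65 and -0.80 in CC, and -0.37, -0.65, -0.58 and -0.72 in G20.

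**Figure D2:**
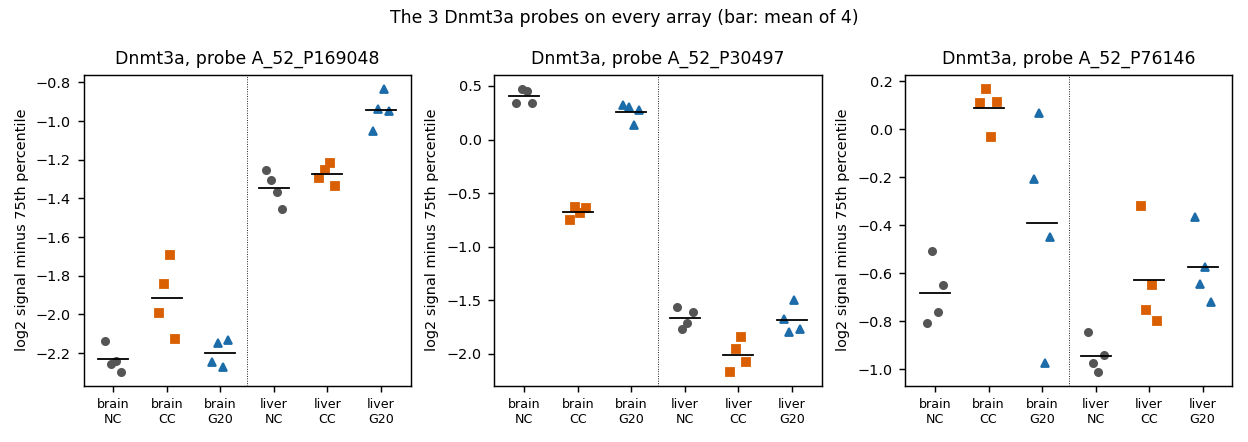
Log2 signal minus the 75th percentile of the array (y axis) of the 3 Dnmt3a probes, 1 panel each, on the 4 arrays of each group and tissue (x axis), with bars at group means. A_52_P169048 is higher in liver, A_52_P30497 is higher in brain, and A_52_P76146 overlaps between tissues in G20.

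The Polycomb repressive complex 2 subunits among the members (Suz12, Eed, Ezh1 and Ezh2) were on the liver side in all 3 groups. Suz12, a core subunit, read 0.69, 0.82, 0.90 and 0.73 in NC, 0.45, 0.27, 0.56 and 0.67 in CC, and 0.93, 0.60, 0.92 and 0.85 in G20 brain. Liver values were 2.03, 2.03, 2.005 and 1.88 in NC, 1.87, 2.04, 1.89 and 1.88 in CC, and 1.78, 2.04, 1.85 and 2.11 in G20. No brain array reached a liver array, and brain minus liver was -1.20 ± 0.10 in NC, -1.43 ± 0.10 in CC and -1.12 ± 0.10 in G20. Its other probe gave -0.54 ± 0.11, -1.29 ± 0.11 and -0.48 ± 0.11. Eed, the subunit that binds the finished mark, differed, with a difference of -0.85 ± 0.10 in NC, -1.18 ± 0.10 in CC and -0.92 ± 0.10 in G20. The catalytic subunits Ezh1 (-0.42 ± 0.12 in NC, -0.62 ± 0.12 in CC and -0.46 ± 0.12 in G20) and Ezh2 (-0.32 ± 0.13 in NC, -0.88 ± 0.13 in CC and -0.54 ± 0.13 in G20) were lower in brain too, Ezh2 with overlapping arrays in NC and G20.

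The lysine 9 methyltransferases did not move as a group. Setdb1, which acts with TRIM28, was higher in brain by 1.49 ± 0.09 in NC, 0.73 ± 0.09 in CC and 1.10 ± 0.09 in G20, and Ehmt2 by 0.70 ± 0.07 in NC, 1.21 ± 0.07 in CC and 0.76 ± 0.07 in G20. Ehmt1, the partner of Ehmt2, differed by 0.05 ± 0.08 in NC (adjusted p = 0.56), 0.92 ± 0.08 in CC and 0.30 ± 0.08 in G20, the last of which turned to -0.07 when arrays were centred on their median. Suv39h1 was called in CC alone (-0.48 ± 0.10, adjusted p = 0.000158), with -0.06 ± 0.10 in NC and 0.02 ± 0.10 in G20.

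Among erasers, Hdac2, a class I deacetylase of the SIN3, NuRD and CoREST complexes, had the largest brain excess in NC and G20, and Hdac11 in CC. The Hdac2 probe at chr10:36683065-36683199 read 0.46, 0.70, 0.55 and 0.32 in NC, -1.66, -1.72, -1.24 and -1.56 in CC, and 0.09, -0.59, 0.36 and 0.35 in G20 brain. Liver arrays read -3.09, -2.85, -2.64 and -2.84 in NC, -3.58, -3.84, -3.41 and -3.76 in CC, and -3.24, -2.66, -2.81 and -2.66 in G20. Brain exceeded liver by 3.36 ± 0.18 in NC, 2.10 ± 0.18 in CC and 2.89 ± 0.18 in G20, or 10.3-fold, 4.29-fold and 7.44-fold. The other Hdac2 probe was well above background on 12 of 12 brain arrays and 0 of 12 liver arrays, which puts the brain level at least 4.62-fold higher in NC, at least 1.80-fold in CC and at least 6.37-fold in G20. These bounds set the mean brain signal against the dimmest measurable level of the liver arrays.

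Hdac1, the close paralog of Hdac2, went the other way. It read 2.55, 2.15, 2.64 and 2.23 in NC, 2.54, 2.76, 2.06 and 1.99 in CC, and 2.51, 2.52, 2.62 and 2.64 in G20 brain. Liver values were 3.22, 3.18, 3.66 and 3.68 in NC, 3.61, 4.10, 3.31 and 3.08 in CC, and 3.33, 3.83, 3.59 and 3.81 in G20. Brain minus liver was -1.04 ± 0.20 in NC, -1.19 ± 0.20 in CC and -1.07 ± 0.20 in G20, and the tissues did not overlap within any group. Hdac3 was higher in brain by 0.79 ± 0.08 in NC, 0.87 ± 0.08 in CC and 0.53 ± 0.08 in G20, and Hdac8 by 0.54 ± 0.08 in NC and 0.38 ± 0.08 in G20, with 0.15 ± 0.08 in CC (adjusted p = 0.0968) and -0.55 in NC under normexp correction. The other Hdac8 probe was lower in G20 brain, with a difference of -0.84 ± 0.13.

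Class II and IV deacetylases, many of which shuttle between nucleus and cytoplasm, lay mostly on the brain side. Hdac11 read -1.03, -1.04, -1.05 and -0.96 in NC, -0.03, -0.02, -0.13 and 0.03 in CC, and -1.06, -0.75, -1.01 and -1.06 in G20 brain. Liver arrays read -2.41, -2.23, -2.44 and -2.18 in NC, -2.37, -2.10, -2.35 and -2.49 in CC, and -1.91, -2.35, -2.02 and -2.46 in G20. The brain excess was 1.30 ± 0.11 in NC, 2.28 ± 0.11 in CC and 1.21 ± 0.11 in G20, although with normexp background correction the NC value was -0.13.

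Hdac4 read 1.35, 1.44, 1.44 and 1.29 in NC, 0.33, 0.48, 0.90 and 0.79 in CC, and 1.36, 1.23, 1.27 and 1.23 in G20 brain. Liver values were -0.30, -0.42, -0.35 and -0.47 in NC, -0.49, -0.79, -0.59 and -0.62 in CC, and 0.05, -0.11, -0.33 and -0.11 in G20. Each brain array was above all liver arrays, and the excess was 1.77 ± 0.10 in NC, 1.25 ± 0.10 in CC and 1.40 ± 0.10 in G20.

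Hdac6, which deacetylates tubulin as well, read 2.75, 2.59, 2.61 and 2.65 in NC, 1.81, 1.94, 1.93 and 1.91 in CC, and 2.57, 3.05, 2.78 and 2.49 in G20 brain. Liver arrays read 0.94, 1.03, 0.84 and 1.03 in NC, 0.49, 1.07, 1.27 and 1.22 in CC, and 1.17, 1.21, 1.07 and 1.12 in G20. The tissues were apart in each group, by 1.69 ± 0.13 in NC, 0.89 ± 0.13 in CC and 1.58 ± 0.13 in G20.

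Hdac9 read -1.80, -1.72, -1.64 and -2.03 in NC, -1.93, -1.43, -2.01 and -1.89 in CC, and -1.55, -1.97, -1.63 and -1.82 in G20 brain. Liver values were -2.54, -2.81, -2.67 and -2.87 in NC, -3.39, -3.02, -3.54 and -2.87 in CC, and -2.64, -2.63, -2.90 and -3.12 in G20. The excess in brain was 0.92 ± 0.16 in NC, 1.39 ± 0.16 in CC and 1.08 ± 0.16 in G20, with -0.44 in NC under normexp correction. Hdac5 was called in CC (0.93 ± 0.20) and G20 (0.48 ± 0.20) and not in NC (0.25 ± 0.20, adjusted p = 0.238), and with normexp correction the G20 value was -0.05. Hdac7, named Hdac7a on the array, was lower in brain in NC (-0.21 ± 0.10) and G20 (-0.30 ± 0.10) and higher in CC (0.69 ± 0.10), whereas its other probe was higher in brain in all 3 groups by 0.72 ± 0.10, 1.04 ± 0.10 and 0.71 ± 0.10. With the mean of both probes Hdac7 was 0.25 higher in NC brain and 0.20 higher in G20 brain.

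The sirtuins, deacetylases that consume NAD+, split. Sirt7 (-1.15 ± 0.07 in NC, -0.89 ± 0.07 in CC and -1.12 ± 0.07 in G20) and Sirt1 (-0.70 ± 0.09 in NC, -0.61 ± 0.09 in CC and -0.71 ± 0.09 in G20) were lower in brain, Sirt1 with the mean of its probes at 0.23 in G20. Sirt2 was higher in brain by 0.71 ± 0.08 in NC, 0.48 ± 0.08 in CC and 0.69 ± 0.08 in G20. The Sirt6 probe was well above background on all brain arrays and on 5 of 12 liver arrays (1 NC, 0 CC and 4 G20). Sirt6 was higher in brain by 0.48 ± 0.09 in G20, and by 0.82 ± 0.09 in NC, a value that rests on 1 measured liver array. In CC the brain level was at least 1.47-fold higher than liver. With normexp correction the Sirt6 difference was -1.80 in NC and -0.32 in CC.

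Zfp57 was read well above background throughout brain and on few liver arrays, and passed the filter through brain, so its place at the brain end of the order rests on liver arrays that mostly give only an upper limit. Its probe at chr17:36618363-36618422 read -0.45, -0.68, -0.63 and -0.43 in NC, -1.67, -1.62, -1.55 and -1.46 in CC, and -0.60, -0.61, -0.73 and -0.62 in G20 brain. Liver arrays read -4.79, -5.85, -5.63 and -4.57 in NC, -5.27, -5.44, -5.95 and -5.44 in CC, and -6.26, -5.25, -5.32 and -5.33 in G20. The lowest brain array, at -1.67, lay above the highest liver array, at -4.57. In CC, where no liver array was well above background, the brain level was at least 13.1-fold higher than the dimmest measurable liver level. The fitted differences, 4.66 ± 0.24 in NC and 4.90 ± 0.24 in G20, rest on 1 and 2 measured liver arrays. Trim28, the corepressor that ZFP57 recruits, was higher in brain in NC (0.27 ± 0.10) and CC (0.58 ± 0.10), with 0.22 ± 0.10 in G20 (adjusted p = 0.051), and the NC value turned to -0.14 with arrays centred on the median.

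Mbd2, a methyl-CpG binding protein of the NuRD complex, was the reader with the largest liver excess. It read -0.75, -0.71, -0.80 and -0.65 in NC, -0.83, -1.10, -1.23 and -1.19 in CC, and -0.91, -1.17, -0.73 and -0.67 in G20 brain. Liver values were 0.83, 0.98, 0.81 and 0.99 in NC, 1.17, 1.08, 1.03 and 0.97 in CC, and 0.71, 0.93, 1.11 and 1.06 in G20. No group overlapped between tissues, and brain minus liver was -1.63 ± 0.11 in NC, -2.15 ± 0.11 in CC and -1.82 ± 0.11 in G20. Mbd4, a glycosylase that removes thymine from mismatches at CpG sites, was lower in brain too, with a difference of -0.44 ± 0.10 in NC, -1.13 ± 0.10 in CC and -0.33 ± 0.10 in G20. Mbd3 (0.33 ± 0.10 in NC, 0.78 ± 0.10 in CC and 0.23 ± 0.10 in G20) and the remodeler ATPase Smarca4 (0.24 ± 0.10 in NC, 0.57 ± 0.10 in CC and 0.30 ± 0.10 in G20) were higher in brain, but with arrays centred on the median the NC and G20 values became -0.09 and -0.14 for Mbd3 and -0.17 and -0.07 for Smarca4.

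Ctcf, the insulator protein, was higher in brain in NC (0.49 ± 0.08) and G20 (0.38 ± 0.08), and was 0.07 ± 0.08 in CC. The representative Mbd1 probe was lower in brain in NC (-0.79 ± 0.12) and G20 (-0.54 ± 0.12), with 0.02 ± 0.12 in CC, whereas another Mbd1 probe was higher in brain by 0.35 ± 0.10 in NC and 0.28 ± 0.10 in G20. Centring arrays on the median moved the median brain minus liver difference of all genes from -0.04 to -0.45 in NC, from -0.06 to -0.42 in CC and from -0.06 to -0.43 in G20, so members with small differences have no settled direction.

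The sequences upstream of 5 of these genes are shown because CG dinucleotides are the substrate of the DNA methyltransferases, and because the genes stood toward the ends of the tissue order. Uhrf1, Dnmt3b and Hells are the DNA methylation writers with a liver excess in all 3 groups, and Zfp57 and Hdac2 had the highest mean brain excess. The 5 were chosen after their values were seen. Each is the 250 bases before a RefSeq transcription start on GRCm38.p6, plus strand, 5′ to 3′, with CG in capitals. They lie at chr17:56304063-56304312 (Uhrf1), chr2:153649199-153649448 (Dnmt3b), chr19:38930740-38930989 (Hells), chr17:37002275-37002524 (Zfp57) and chr10:36974294-36974543 (Hdac2). Where the table held several starts, the start with the most CG was taken.
Uhrf1: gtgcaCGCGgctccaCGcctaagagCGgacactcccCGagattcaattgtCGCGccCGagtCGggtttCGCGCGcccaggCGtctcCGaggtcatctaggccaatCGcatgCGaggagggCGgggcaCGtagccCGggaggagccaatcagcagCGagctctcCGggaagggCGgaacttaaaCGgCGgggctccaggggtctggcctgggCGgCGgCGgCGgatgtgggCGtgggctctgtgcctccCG
Dnmt3b: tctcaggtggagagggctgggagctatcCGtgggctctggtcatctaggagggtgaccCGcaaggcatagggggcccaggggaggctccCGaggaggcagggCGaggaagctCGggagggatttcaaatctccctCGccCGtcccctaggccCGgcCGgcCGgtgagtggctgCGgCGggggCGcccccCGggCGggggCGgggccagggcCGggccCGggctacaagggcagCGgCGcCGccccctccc
Hells: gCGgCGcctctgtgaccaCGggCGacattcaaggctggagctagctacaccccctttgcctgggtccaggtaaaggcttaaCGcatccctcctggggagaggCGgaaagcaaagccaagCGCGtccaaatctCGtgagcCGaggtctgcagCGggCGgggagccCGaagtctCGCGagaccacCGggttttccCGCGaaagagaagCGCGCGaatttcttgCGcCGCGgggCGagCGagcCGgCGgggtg
Zfp57: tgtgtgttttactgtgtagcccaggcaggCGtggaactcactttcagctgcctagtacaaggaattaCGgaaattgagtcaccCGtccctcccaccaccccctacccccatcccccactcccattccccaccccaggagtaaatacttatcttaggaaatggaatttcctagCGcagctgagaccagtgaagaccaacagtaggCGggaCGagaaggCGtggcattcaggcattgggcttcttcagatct
Hdac2: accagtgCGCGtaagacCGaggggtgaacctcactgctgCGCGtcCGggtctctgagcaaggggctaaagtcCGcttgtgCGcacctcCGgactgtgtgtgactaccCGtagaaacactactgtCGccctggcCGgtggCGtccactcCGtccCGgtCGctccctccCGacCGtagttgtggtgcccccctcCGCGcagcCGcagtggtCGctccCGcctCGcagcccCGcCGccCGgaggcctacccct

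The Uhrf1, Hells, Hdac2 and Dnmt3b windows held 30, 28, 27 and 21 CG, and the Zfp57 window held 7, against a median of 6 over 27025 genes with a window. RefSeq windows were used for 32 of the 37 members, whose median was 21.5 CG (range 2 to 40). No window was used for Hdac1 and Dppa3, and members on chromosome 18 (Hdac3, Mbd1 and Mbd2) were left out. The 8-letter words TTTCCCGC, TTTGGCGC, TTTCGCGC and TTTGCCGC, of the type bound by the E2F factors of the cell cycle, were searched on both strands. They were found upstream of 5 of the 32 members with a window (Uhrf1, Hells, Suz12, Dnmt1 and Suv39h1) and of 1.95% of all genes. Each word contains CG, and the windows of members held more CG than those of all genes. The shares are thus of unlike sequences, and whether members hold more of these words at equal CG was not tested. Of the members lower in brain in all 3 groups, 3 of 10 windows held such a word, and of those higher in brain 0 of 12 did. Hdac1 and Mbd2 (lower in brain) and Hdac3 (higher in brain) are not among these windows. In Uhrf1 the word TTTCGCGC began 185 bases before the start, and in Hells TTTCCCGC began 62 bases before it, within the printed sequences. The Dnmt3b window held none of these words. A match describes the letters and does not show a bound site.

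**Figure D3:**
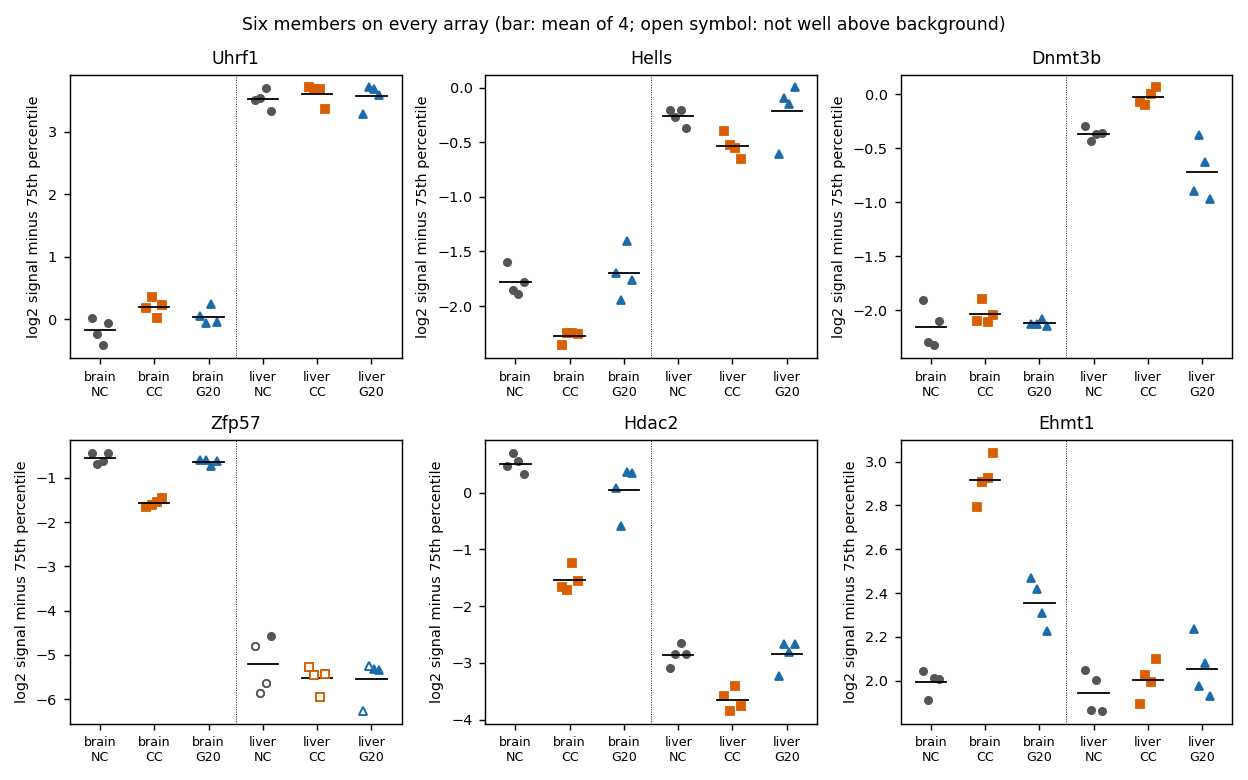
Log2 signal minus the 75th percentile (y axis) of 6 members on the 4 arrays of each group and tissue (x axis), with bars at group means and open symbols for arrays not well above background. Uhrf1, Hells and Dnmt3b are higher in liver, Zfp57 and Hdac2 are higher in brain, and Ehmt1 is higher in CC and G20 brain than in NC brain.

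Clones of generation 20 differed little from the controls in these genes. In brain, 1 of 35 members was called between G20 and NC, against 1.77% of all 18298 genes (1.24% higher, 0.536% lower), and in liver 0 of 34, against 7.31% of all 16364 genes (4.31% higher, 3% lower). The background itself moved with single arrays. In brain it was 133 to 188 genes without G20 array 1, 2 or 4 or NC array 1, 2 or 4, 310 without NC array 3 and 526 without G20 array 3, against 324 with all. Liver arrays read 585 to 673 genes without G20 array 2 or 4 or NC array 1 or 2, and 837 to 1129 without any of the others, against 1196 with all. At an unadjusted p under 0.05 there were 6 members in each tissue by limma, against 19.3% of all genes in brain and 23.7% in liver. With normexp background correction 0 members were called in brain and 9 in liver, against 0.0109% and 30.9% of all genes. The difference had a median size of 0.0975 in brain and 0.0988 in liver, against 0.125 and 0.163 over all genes. The 95% confidence interval lay within 0.5 of 0 on the log2 scale for 28 of 35 members in brain and 29 of 34 in liver, against 70.2% and 55.4% of all genes.

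The called member was Ehmt1, whose product methylates histone H3 at lysine 9 together with EHMT2. In brain it read 2.04, 1.91, 2.01 and 2.01 in NC, 2.80, 2.91, 2.93 and 3.04 in CC, and 2.47, 2.42, 2.31 and 2.23 in G20, at chr2:24612811-24612870. All 4 G20 arrays were above the 4 NC arrays, by 0.36 ± 0.07 (adjusted p = 0.0374, 95% interval 0.20 to 0.53), which is 1.28-fold. Liver values were 2.05, 1.87, 2.004 and 1.86 in NC, 1.89, 2.03, 1.99 and 2.10 in CC, and 2.24, 1.97, 2.08 and 1.93 in G20, with overlapping groups and 0.11 ± 0.09 (adjusted p = 0.482). The call was lost when any NC array, G20 array 1 or G20 array 2 was left out (adjusted p 0.0615 to 0.105), and it was lost under 12 of 16 alternatives in all (adjusted p from 0.0371 to 0.795), with a difference of 0.28 to 0.40. The difference between tissues was 0.25 ± 0.11 (adjusted p = 0.218). A further Ehmt1 probe was well above background on 1 of 24 arrays.

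**Figure D4:**
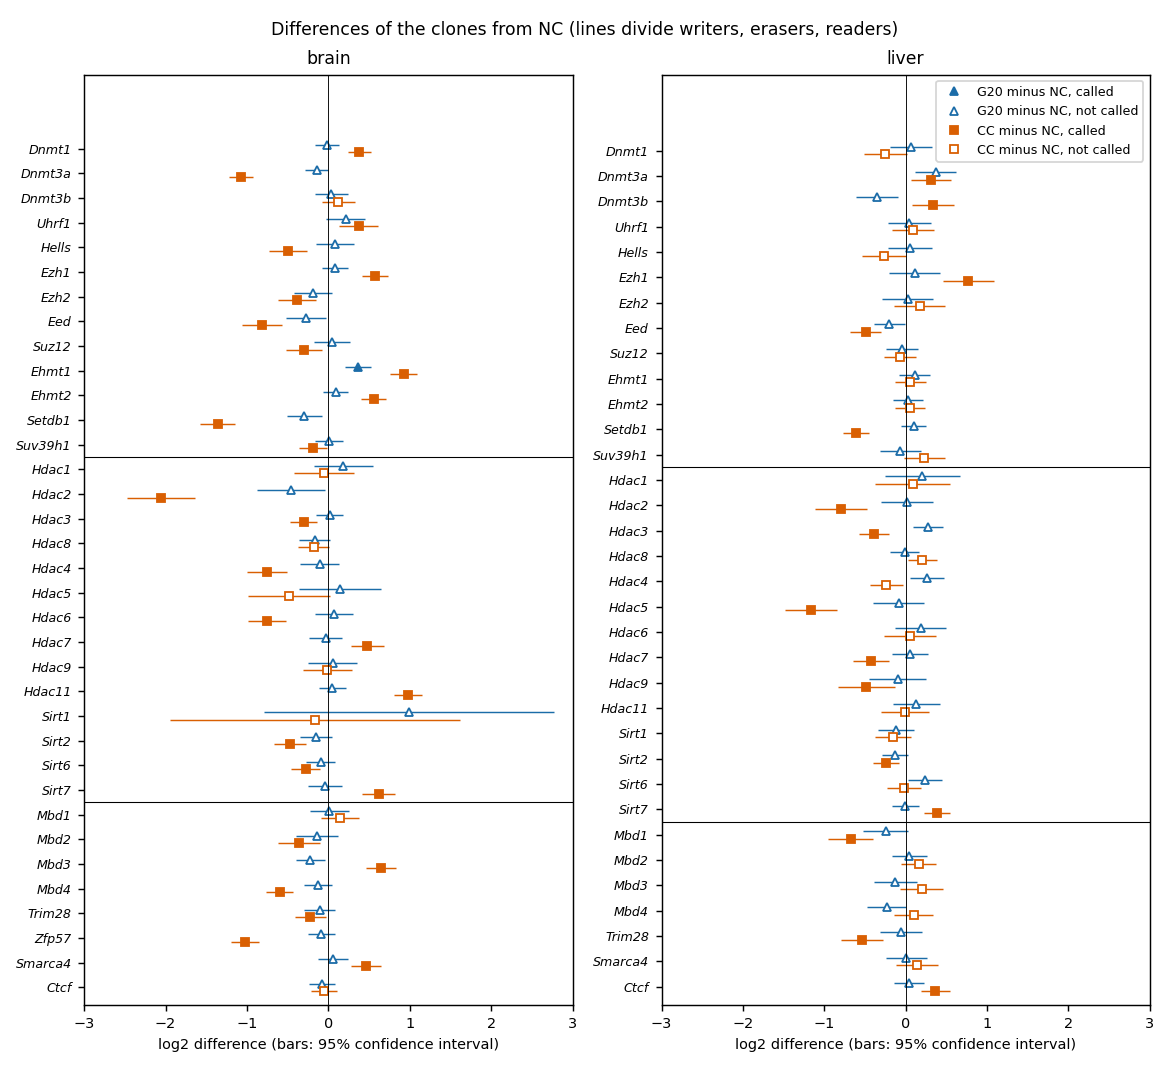
Differences of log2 signal from NC (x axis) for G20 and CC in brain and liver (panels) for each member tested (y axis), with 95% confidence intervals; filled symbols are called at an adjusted p under 0.05. G20 minus NC values cluster near 0 with Ehmt1 in brain the called member, and CC minus NC values spread from -2.06 to 0.98 in brain.

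Groups did not overlap between G20 and NC for 5 of 35 members in brain and 6 of 34 in liver, against 12.1% and 17.6% of all genes. In brain these were Ehmt1 with Dnmt3a (-0.15 ± 0.07, adjusted p = 0.259), Setdb1 (-0.29 ± 0.10, adjusted p = 0.143), Sirt2 (-0.16 ± 0.09, adjusted p = 0.367) and Mbd3 (-0.22 ± 0.08, adjusted p = 0.181). In liver they were Dnmt3a (0.37 ± 0.11, adjusted p = 0.0749), Hdac3 (0.28 ± 0.09, adjusted p = 0.0749), Hdac6 (0.18 ± 0.15), Sirt6 (0.24 ± 0.10), Eed (-0.20 ± 0.09) and Sirt2 (-0.13 ± 0.07). The Sirt6 probe passed the liver filter through G20 alone, and only 1 NC array read it well above background. Its place among these members is thus no support for a difference. The Dnmt3a values came from different probes, A_52_P30497 in brain and A_52_P76146 in liver. In the other tissue, A_52_P30497 gave -0.02 in liver and A_52_P76146 gave 0.29 in brain. Among these members, the Ehmt1 difference alone passed the test.

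Dnmt3b in liver had the largest negative G20 difference there, -0.35 ± 0.12 (adjusted p = 0.0926). The 4 G20 arrays ranged from -0.97 to -0.38 and the NC arrays from -0.43 to -0.29, so 3 G20 arrays lay below every NC array and G20 array 2 lay among them. Without G20 array 2 the value was -0.47 with an adjusted p of 0.0291. The brain value for the same gene was 0.04 ± 0.09 (adjusted p = 0.86). Over single probes, 2 of 49 member probes were called in liver (background 6.65% of probes) and 1 of 53 in brain (1.42%). The liver probes were A_52_P169048 of Dnmt3a (0.40 ± 0.08, adjusted p = 0.0118) and A_51_P481191 of Hdac8 (0.62 ± 0.14, adjusted p = 0.0209), neither of which represented its gene.

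Sirt1 in brain had a difference of 0.99 ± 0.82 that rests on a single array. Its probe A_51_P141152 read 0.28, 0.17, 0.00 and 0.05 in NC, -0.08, -0.09, 0.01 and -0.01 in CC, and 0.08, -0.24, 0.09 and 4.55 in G20, where the value 4.55 was on G20 array 4 and was marked as not well above background. The other Sirt1 probe read 0.12, -0.02, -0.01 and 0.14 in NC, -0.12, 0.06, -0.06 and 0.08 in CC, and -0.02, -0.06, -0.22 and -0.02 in G20 and gave -0.13 ± 0.08. Hdac2 in brain gave -0.46 ± 0.19 (adjusted p = 0.222), with G20 array 2 at -0.59 below the others. The other Hdac2 probe gave 0.32 in brain and was not called.

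The difference between tissues of G20 against NC, tested over all 24 arrays, was called for 0 of 35 members (background 4.06% of 19881 genes; 6 members and 19.7% of all genes at an unadjusted p under 0.05). The lowest adjusted p was that of Setdb1 (-0.39 ± 0.12, adjusted p = 0.0709), which was called without G20 brain array 3 (-0.44, adjusted p = 0.0496) or 4 (-0.46, adjusted p = 0.0306). Dnmt3b was called without G20 liver array 2 (0.50, adjusted p = 0.0423). Intervals for 21 of 35 members lay within 0.5 of 0, against 30.6% of all genes.

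**Figure D5:**
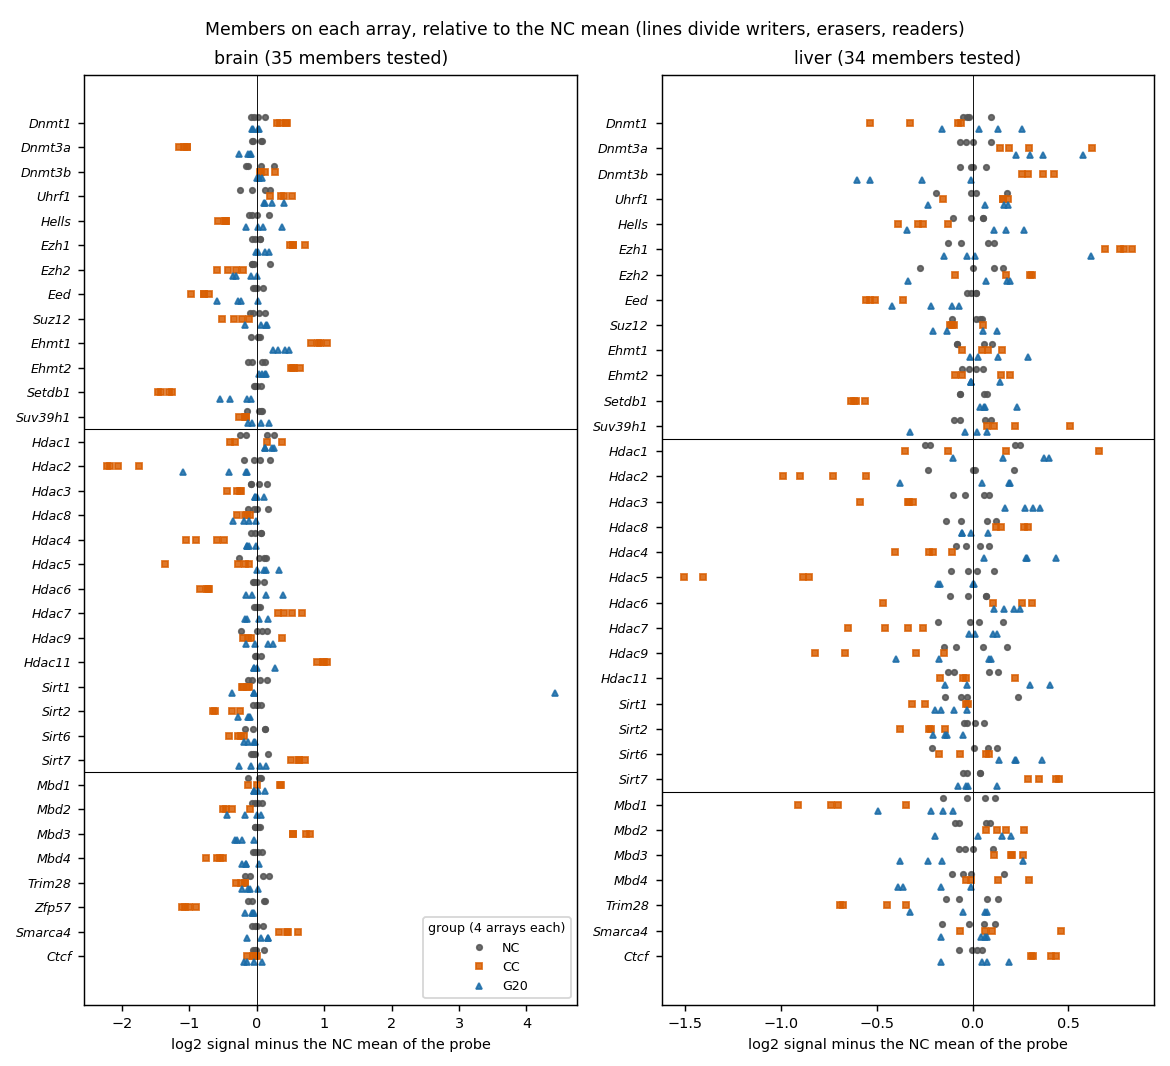
Log2 signal of every array minus the NC mean of the same probe (x axis) for the 35 members tested in brain and the 34 tested in liver (y axis); each group has 4 arrays. NC and G20 arrays intermix for most members, CC arrays stand apart for many, and the G20 brain array of Sirt1 at the right is the value not well above background.

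CC clones differed from controls in many members, as they did in most genes on the array. In brain, 10 members were higher and 17 lower in CC than in NC, 27 of 35 in all, against 69.3% of all genes called (41.5% higher and 27.8% lower). In liver, 5 were higher and 10 lower, 15 of 34, against 40.7% of all genes (19.7% higher and 21% lower). Group, slide and scan session cannot be told apart in these comparisons. Arrays of CC and NC did not overlap for 26 of 35 members in brain and 19 of 34 in liver, against 63.7% and 38.6% of all genes. In brain 12 of 13 writers, 9 of 14 erasers and 6 of 8 readers were called. The median difference over members was -0.19 in brain and 0.02 in liver, against 0.13 and 0.02 over all genes; centring arrays on the median moved the all-gene value in brain to 0.25 and the brain calls to 11 higher and 10 lower.

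Summed signals of several cell type lists differed between CC and NC, while single markers of some lists were called in both directions. In CC brain, the summed signal of 8 neural progenitor markers was 111 to 129 against 66.9 to 72.2 in NC, that of 18 proliferation markers 54.2 to 67.9 against 35.2 to 42.7, and that of 11 leukocyte markers 4.55 to 5.12 against 2.40 to 2.64. Singly, 5 of 8 progenitor markers were higher and 0 lower, 8 of 18 proliferation markers were higher and 4 lower, 5 of 9 tested leukocyte markers were higher and 0 lower, and 4 of 12 neuronal markers were higher and 5 lower, against the 41.5% of all genes higher and 27.8% lower. In CC liver, 11 hepatocyte markers summed to 741 to 1503 against 2164 to 2520 in NC, and 13 erythroid markers to 314 to 1255 against 1448 to 1657; 7 of 11 and 6 of 13 were lower and 0 higher, against 21% of all genes lower and 19.7% higher. The neuronal sum was 221 to 239 in CC brain against 204 to 209 in NC. In CC liver the leukocyte sum was 520 to 586 against 736 to 829, with 3 of 11 markers higher and 4 lower. Endothelial markers summed to 4.39 to 5.62 in CC brain against 3.35 to 3.92, and to 17.7 to 27.4 in CC liver against 14.1 to 16.9. The part of these cell types in the differences of the members was not tested.

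Among DNA methylation writers, Dnmt1 was higher in CC brain by 0.38 ± 0.07 (adjusted p = 0.000268), and was -0.25 ± 0.12 in liver (adjusted p = 0.117). Uhrf1 was higher in CC brain by 0.37 ± 0.11 (adjusted p = 0.0098), with overlapping arrays, and Hells was lower, with a difference of -0.50 ± 0.11 (adjusted p = 0.00124), although with normexp correction Hells was at 0.12. In liver Uhrf1 (0.09 ± 0.12) and Hells (-0.27 ± 0.12) were not called. Dnmt3b was higher in CC liver by 0.34 ± 0.12 (adjusted p = 0.039) and not called in brain (0.12 ± 0.09).

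The Dnmt3a probes disagreed again in CC brain. A_52_P30497, which represents the gene there, was lower, with a difference of -1.08 ± 0.07 (adjusted p = 1.35e-07), while A_52_P76146 was higher by 0.77 ± 0.17 and A_52_P169048 by 0.32 ± 0.09, and their mean was 0.00. In liver A_52_P30497 was lower, with a difference of -0.35 ± 0.10, A_52_P76146 was higher by 0.31 ± 0.11, and A_52_P169048 gave 0.07 ± 0.08 (adjusted p = 0.497). In both tissues A_52_P30497 thus lay on the negative side and the other 2 probes on the positive side, and the direction given for the gene depends on the probe taken.

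Polycomb members differed in both directions. Eed read 0.30, 0.36, 0.45 and 0.32 in NC, -0.63, -0.42, -0.35 and -0.43 in CC, and 0.08, -0.23, 0.37 and 0.12 in G20 brain. Liver arrays read 1.23, 1.20, 1.23 and 1.18 in NC, 0.65, 0.70, 0.85 and 0.67 in CC, and 0.79, 1.10, 0.99 and 1.14 in G20. CC lay below NC without overlap in both tissues, with a difference of -0.81 ± 0.11 (adjusted p = 4.17e-05) in brain and -0.49 ± 0.09 (adjusted p = 0.00097) in liver.

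Ezh1, the catalytic subunit typical of non-dividing cells, read -3.21, -3.26, -3.14 and -3.14 in NC, -2.66, -2.70, -2.66 and -2.47 in CC, and -3.07, -3.01, -3.20 and -3.17 in G20 brain. Liver values were -2.66, -2.83, -2.90 and -2.69 in NC, -1.98, -2.08, -1.999 and -1.94 in CC, and -2.15, -2.76, -2.92 and -2.80 in G20. CC was higher in brain by 0.57 ± 0.07 (adjusted p = 2.39e-05) and in liver by 0.77 ± 0.14 (adjusted p = 0.00137), the latter at -0.05 with normexp correction. Ezh2, its counterpart in dividing cells, read 1.33, 1.10, 1.06 and 1.06 in NC, 0.55, 0.71, 0.94 and 0.83 in CC, and 0.83, 0.78, 1.05 and 1.13 in G20 brain. It was lower in CC brain, with a difference of -0.38 ± 0.11 (adjusted p = 0.00723) without overlap, and Suz12 was lower, with a difference of -0.30 ± 0.10 (adjusted p = 0.0203).

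Setdb1 read 0.85, 0.90, 0.96 and 0.86 in NC, -0.36, -0.57, -0.42 and -0.53 in CC, and 0.49, 0.35, 0.74 and 0.81 in G20 brain. Liver arrays read -0.52, -0.66, -0.54 and -0.66 in NC, -1.21, -1.16, -1.22 and -1.23 in CC, and -0.54, -0.53, -0.56 and -0.37 in G20. G20 brain array 3, at 0.74, was not well above background. The CC arrays were the lowest in both tissues, with a difference of -1.36 ± 0.10 (adjusted p = 3.35e-07) in brain and -0.61 ± 0.07 (adjusted p = 6.13e-05) in liver. Ehmt1 was higher in CC brain by 0.92 ± 0.07 (adjusted p = 6.86e-07), or 1.9-fold.

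Ehmt2 read 4.74, 4.48, 4.55 and 4.70 in NC, 5.25, 5.15, 5.16 and 5.12 in CC, and 4.70, 4.75, 4.65 and 4.73 in G20 brain. It was higher in CC brain by 0.55 ± 0.07 (adjusted p = 2.21e-05), without overlap, and was 0.05 ± 0.08 in liver. Suv39h1 read 0.13, 0.10, -0.07 and 0.14 in NC, -0.19, -0.08, -0.09 and -0.11 in CC, and 0.00, 0.25, 0.13 and -0.06 in G20 brain. CC lay lower, with a difference of -0.19 ± 0.08 (adjusted p = 0.0494), a call that was lost under 12 of 15 alternatives.

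Hdac2 had the largest CC difference of the members in brain, -2.06 ± 0.19 (adjusted p = 1.86e-06), or 4.16-fold lower, and was lower in CC liver, with a difference of -0.79 ± 0.15 (adjusted p = 0.00137). Its other brain probe gave -0.72 ± 0.15. Hdac3, the class I deacetylase of the NCoR complex, read 1.80, 1.69, 1.68 and 1.93 in NC, 1.34, 1.52, 1.48 and 1.54 in CC, and 1.75, 1.88, 1.75 and 1.78 in G20 brain. Liver values were 1.05, 0.95, 0.88 and 1.07 in NC, 0.66, 0.65, 0.68 and 0.40 in CC, and 1.26, 1.34, 1.15 and 1.30 in G20. Both tissues were lower in CC, with a difference of -0.31 ± 0.08 (adjusted p = 0.00324) and -0.39 ± 0.09 (adjusted p = 0.00367). Hdac1 was called in no comparison within a tissue (-0.05 ± 0.17 in brain and 0.09 ± 0.21 in liver for CC against NC).

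Hdac8 read -2.05, -2.24, -2.10 and -2.31 in NC, -1.89, -1.91, -2.06 and -2.03 in CC, and -2.10, -2.23, -2.19 and -2.23 in G20 liver. G20 was lower than CC there, with a difference of -0.22 ± 0.08 (adjusted p = 0.0484), and CC minus NC was 0.21 ± 0.08 (adjusted p = 0.0627). Hdac4 was lower in CC brain, with a difference of -0.76 ± 0.11 (adjusted p = 7.11e-05) and was -0.24 ± 0.10 in CC liver (adjusted p = 0.0683), and G20 was higher than CC in liver by 0.50 ± 0.10 (adjusted p = 0.00135).

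Hdac5 had the largest CC difference of the members in liver. It read 2.54, 2.63, 2.76 and 2.68 in NC, 1.15, 1.76, 1.24 and 1.80 in CC, and 2.47, 2.66, 2.65 and 2.48 in G20 liver. The CC arrays lay below all others, with a difference of -1.16 ± 0.14 (adjusted p = 8.37e-05), or 2.24-fold. In brain it read 3.04, 3.01, 2.93 and 2.64 in NC, 2.63, 1.54, 2.73 and 2.78 in CC, and 3.23, 3.02, 2.90 and 3.05 in G20. CC array 2 at 1.54 stood apart there, and CC minus NC was -0.49 ± 0.23 (adjusted p = 0.0777).

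Hdac6 was lower in CC brain, with a difference of -0.75 ± 0.11 (adjusted p = 5.11e-05) and was 0.05 ± 0.15 in CC liver. Hdac7 read 0.66, 0.60, 0.68 and 0.62 in NC, 1.16, 1.30, 1.05 and 0.96 in CC, and 0.46, 0.49, 0.67 and 0.80 in G20 brain. Liver arrays read 0.67, 1.01, 0.84 and 0.88 in NC, 0.59, 0.51, 0.40 and 0.20 in CC, and 0.98, 0.83, 0.96 and 0.86 in G20. CC was higher in brain by 0.48 ± 0.09 (adjusted p = 0.000641) and lower in liver, with a difference of -0.43 ± 0.10 (adjusted p = 0.0059), while the other probe was higher in both, by 0.72 ± 0.08 and 0.41 ± 0.11. Hdac9 was lower in CC liver, with a difference of -0.48 ± 0.16 (adjusted p = 0.0316), lost under 8 of 15 alternatives. Hdac11 was higher in CC brain by 0.98 ± 0.08 (adjusted p = 5.46e-07), or 1.97-fold, and was -0.01 ± 0.13 in liver.

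Sirt2, which also deacetylates tubulin, read 2.29, 2.17, 2.23 and 2.23 in NC, 1.97, 1.86, 1.61 and 1.57 in CC, and 1.96, 2.13, 2.11 and 2.10 in G20 brain. Liver values were 1.49, 1.53, 1.58 and 1.47 in NC, 1.14, 1.29, 1.30 and 1.38 in CC, and 1.38, 1.37, 1.31 and 1.46 in G20. It was lower in CC, with a difference of -0.48 ± 0.09 (adjusted p = 0.000528) in brain and -0.24 ± 0.07 (adjusted p = 0.0209) in liver, but another Sirt2 probe was higher in CC liver by 0.26 ± 0.08, and the mean of the probes there was 0.05.

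Sirt7, a nucleolar sirtuin, read 2.34, 2.15, 2.12 and 2.08 in NC, 2.68, 2.89, 2.80 and 2.79 in CC, and 2.08, 2.22, 2.31 and 1.91 in G20 brain. Liver arrays read 3.32, 3.25, 3.23 and 3.32 in NC, 3.63, 3.72, 3.73 and 3.57 in CC, and 3.20, 3.26, 3.41 and 3.24 in G20. CC was the highest group in both tissues, by 0.62 ± 0.09 (adjusted p = 0.000101) and 0.38 ± 0.07 (adjusted p = 0.00171). Sirt6 read -3.79, -3.95, -4.08 and -3.78 in NC, -4.17, -4.13, -4.10 and -4.32 in CC, and -3.95, -4.03, -3.93 and -4.09 in G20 brain. CC was lower, with a difference of -0.28 ± 0.08 (adjusted p = 0.00954), with 1.00 under normexp correction. In liver Sirt6 read -4.93, -4.71, -4.59 and -4.64 in NC, -4.78, -4.89, -4.64 and -4.63 in CC, and -4.35, -4.49, -4.58 and -4.50 in G20, where 4 G20, 1 NC and 0 CC arrays were well above background. The probe passed the filter through G20 alone, the group with the highest readings. The G20 level was at least 1.20-fold that of the CC readings. The limma call of G20 against CC (adjusted p = 0.0474) rests on that filter and is no support for a difference. Under normexp correction G20 minus CC was -1.08.

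Zfp57 was lower in CC brain than in NC, with a difference of -1.02 ± 0.08 (adjusted p = 4.22e-07), or 2.03-fold, with no overlap. Trim28 read 3.26, 2.97, 2.90 and 3.16 in NC, 2.89, 2.90, 2.76 and 2.83 in CC, and 2.85, 2.97, 3.09 and 2.94 in G20 brain. Liver values were 2.88, 2.73, 2.94 and 2.66 in NC, 2.13, 2.46, 2.11 and 2.36 in CC, and 2.47, 2.75, 2.87 and 2.88 in G20. It was lower in CC in both tissues, with a difference of -0.23 ± 0.09 (adjusted p = 0.0357) and -0.54 ± 0.12 (adjusted p = 0.00348), and the brain call was lost under 6 of 15 alternatives.

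Mbd3 read 1.12, 1.08, 1.08 and 1.15 in NC, 1.90, 1.84, 1.64 and 1.64 in CC, and 0.82, 0.88, 1.07 and 0.78 in G20 brain. Liver arrays read 0.71, 0.89, 0.74 and 0.78 in NC, 0.98, 1.04, 0.90 and 0.99 in CC, and 0.40, 0.55, 1.05 and 0.62 in G20. It was higher in CC brain by 0.65 ± 0.08 (adjusted p = 2.55e-05), and in liver G20 was lower than CC, with a difference of -0.32 ± 0.12 (adjusted p = 0.0459).

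Mbd4 read -0.97, -1.07, -1.03 and -1.11 in NC, -1.79, -1.64, -1.60 and -1.55 in CC, and -1.01, -1.20, -1.27 and -1.21 in G20 brain. Liver values were -0.45, -0.66, -0.62 and -0.72 in NC, -0.31, -0.64, -0.48 and -0.62 in CC, and -0.78, -0.62, -0.97 and -1.001 in G20. The CC brain arrays were lower, with a difference of -0.60 ± 0.08 (adjusted p = 2.49e-05), with 0.05 under normexp correction, and G20 was lower than CC in liver, with a difference of -0.33 ± 0.11 (adjusted p = 0.03). Mbd2 was lower in CC brain, with a difference of -0.36 ± 0.12 (adjusted p = 0.0163).

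Mbd1, which binds methylated and some unmethylated CpG, read 2.31, 2.43, 2.57 and 2.52 in NC, 2.11, 1.72, 1.55 and 1.76 in CC, and 1.97, 2.24, 2.36 and 2.30 in G20 liver. It was lower in CC liver, with a difference of -0.67 ± 0.13 (adjusted p = 0.00145), with -0.93 ± 0.17 and -0.57 ± 0.12 from its other probes. In brain the representative probe gave 0.14 ± 0.11 and A_52_P158923 gave -1.43 ± 0.07.

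Smarca4 read 4.72, 4.81, 4.69 and 4.65 in NC, 5.33, 5.16, 5.05 and 5.18 in CC, and 4.88, 4.77, 4.57 and 4.88 in G20 brain. It was higher in CC brain by 0.46 ± 0.09 (adjusted p = 0.000428), although with quantile normalization it was at -0.08. Ctcf read 1.89, 1.91, 1.94 and 1.82 in NC, 2.21, 2.30, 2.32 and 2.19 in CC, and 1.72, 2.08, 1.97 and 1.94 in G20 liver. It was higher in CC liver by 0.37 ± 0.08 (adjusted p = 0.00474), without overlap, and in brain it was -0.06 ± 0.07 (adjusted p = 0.48).

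Of the 34 members tested in both tissues, 26 were called in brain and 15 in liver between CC and NC, and 10 were called in both, which is 38.5% of the brain calls and 66.7% of the liver calls. Over all 14781 genes tested in both tissues the shares were 41.4% and 71.6%, so those of the members were near the background. In both tissues Eed, Hdac2, Hdac3, Setdb1, Sirt2 and Trim28 were lower, and Ezh1 and Sirt7 were higher. Hdac7 and Dnmt3a had opposite directions, the latter with a different probe in each tissue. The other Hdac7 probe was higher in CC in both tissues (0.72 and 0.41), and another Sirt2 probe was higher in CC liver (0.26). The directions of these 3 genes thus depend on the probe taken. The same direction was found for 8 of the 10, against 67.3% of all genes called in both tissues.

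Between G20 and CC, 14 members were higher and 9 lower in G20 brain, 23 of 35, against 67.5% of all genes (28.6% higher, 39% lower). In G20 liver 10 were higher and 7 lower, 17 of 34, against 45% of all genes (24.6% higher, 20.4% lower). Sirt6, among the 10, passed the filter through G20 alone. With arrays centred on the median the counts were 9 and 11 in brain and 6 and 10 in liver. Arrays of G20 and CC did not overlap for 22 of 35 members in brain and 13 of 34 in liver, against 59.7% and 40.2% of all genes. This comparison shares its CC arrays with that of CC and NC. Among the called members Hdac2 had the largest value in brain (1.60 ± 0.19, adjusted p = 1.6e-05), followed by Setdb1 (1.07 ± 0.10) and Zfp57 (0.94 ± 0.08), and Hdac11 (-0.93 ± 0.08) and Mbd3 (-0.87 ± 0.08) were the lowest. In liver Hdac5 (1.08 ± 0.14, adjusted p = 0.000115), Hdac2 (0.81 ± 0.15, or -0.57 under normexp correction) and Setdb1 (0.70 ± 0.07) were the highest, and Dnmt3b (-0.69 ± 0.12, adjusted p = 0.000649) and Ezh1 (-0.66 ± 0.14) the lowest. Sirt1 and Hdac1 were the 2 members tested that were called in no comparison of groups within a tissue.

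The CC against NC difference itself differed between brain and liver for 18 of 35 members, 8 with a higher and 10 with a lower value in brain, against 52.8% of all genes (30.8% and 22%; 11 and 9 with arrays centred on the median). Hdac11 (0.99 ± 0.16, adjusted p = 2.42e-05), Hdac7 (0.90 ± 0.14), Ehmt1 (0.87 ± 0.11) and Mbd1 (0.82 ± 0.17) had the highest values. The 3 Mbd1 probes were all called here and ran from -0.87 to 1.06, so the direction for Mbd1 depends on the probe taken. Hdac2 (-1.26 ± 0.25, adjusted p = 0.000307), Hdac6 (-0.81 ± 0.19) and Setdb1 (-0.76 ± 0.12) had the lowest. NC brain and liver were scanned in separate sessions, so session and tissue cannot be told apart in NC.

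Different probes of a gene were compared because 15 members had more than 1. Between G20 and NC, probes differed in sign for 8 of 13 members with several tested probes in brain and 7 of 11 in liver. With 1 of 53 member probes called in brain and 2 of 49 in liver, of different genes, no member could have opposite calls. Between CC and NC in brain, probes were called in opposite directions for Dnmt3a (1 of 13). In liver this held for Dnmt3a, Hdac7 and Sirt2 (3 of 11). Between brain and liver it held for Dnmt3a and Mbd1 in NC, Dnmt3a in CC, and Dnmt3a, Hdac7, Hdac8 and Mbd1 in G20. In the difference between tissues of CC against NC it held for Mbd1 (1 of 13). Uhrf1, Suz12, Sirt2, Sirt7, Smarca4, Mbd2 and Hdac2 had probes that agreed in sign between tissues in all 3 groups.

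Genes that work beside the members were counted in 8 lists, each given below as the number higher and the number lower of those tested. The share of all genes called in the same comparison is the background for these counts. Between G20 and NC brain, where it was 1.77%, 1 listed gene was called, the acetyltransferase Kat5 (-0.30 ± 0.06, adjusted p = 0.0432), in 0 and 1 of 10 acetyltransferases. The counts were 0 and 0 of 9 genes of 5-methylcytosine oxidation and repair, 0 and 0 of 24 Polycomb partners, 0 and 0 of 21 remodelers, 0 and 0 of 17 deacetylase partners, 0 and 0 of 12 other lysine 9 enzymes and HP1 proteins, 0 and 0 of 17 enzymes of activating marks and 0 and 0 of 7 other methyl-CpG readers. In liver, where the background was 7.31%, they were 0 and 0 of 10, 1 and 0 of 9, 0 and 0 of 24, 0 and 0 of 21, 3 and 0 of 17, 1 and 0 of 12, 1 and 0 of 16 and 0 and 0 of 5 in the same order. The genes called in liver were the uracil glycosylase Ung (0.75 ± 0.11, adjusted p = 0.00294), the lysine 27 demethylase Kdm6b (0.49 ± 0.12), the SETDB1 partner Atf7ip (0.38 ± 0.07), and the deacetylase partners Rcor2 (0.73 ± 0.19), Sin3a (0.32 ± 0.08) and Mta3 (0.29 ± 0.08).

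Between brain and liver in NC, where 43.2% of all genes were higher and 45.8% lower, 17 and 4 of 24 Polycomb partners were higher and lower in brain, with Phc1 at 2.78 ± 0.10 and Pcgf5 at -2.73 ± 0.09. The oxidation and repair genes had 2 and 5 of 9, with the damage-response gene Gadd45a at -5.03 ± 0.13, and the remodelers 11 and 8 of 21, with Smarcd3, a subunit of BAF complexes, at 6.24 ± 0.24. The other methyl-CpG readers had 5 and 1 of 7, with Mbd5 at 4.11 ± 0.29. The acetyltransferases had 6 and 3 of 10, the deacetylase partners 8 and 7 of 17, the other lysine 9 enzymes 8 and 3 of 13 and the activating enzymes 10 and 4 of 17.

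Between CC and NC brain, against 41.5% of all genes higher and 27.8% lower, the counts were 2 and 4 of 10 acetyltransferases, 3 and 1 of 9 oxidation and repair genes, 9 and 8 of 24 Polycomb partners, 9 and 8 of 21 remodelers, 4 and 6 of 17 deacetylase partners, 5 and 4 of 12 other lysine 9 enzymes, 5 and 9 of 17 activating enzymes and 2 and 3 of 7 other readers. Large negative values were those of the remodeler Atrx (-2.16 ± 0.27), the acetyltransferase Ep300 (-1.64 ± 0.10) and the Polycomb partner Aebp2 (-1.61 ± 0.16). In liver, against 19.7% of all genes higher and 21% lower, the counts were 2 and 2 of 10, 0 and 4 of 9, 5 and 2 of 24, 2 and 2 of 21, 5 and 4 of 17, 2 and 1 of 12, 5 and 1 of 16 and 2 and 1 of 5 in the same order. Tet1, which oxidises 5-methylcytosine, was lower in CC liver, with a difference of -1.43 ± 0.20, and Kdm3a, a lysine 9 demethylase, was higher by 1.23 ± 0.17.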

How the data were processed

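The arrays were hybridised with Cy3-labelled RNA and read with Agilent Feature Extraction 9.5.3.1, per the submitters' processing notes. The scanner files hold processed and mean intensity, background intensity and spot flags per the file headers. The deposited matrix was read as processed intensities of the same arrays, and their log2 was used as an alternative. The scale and centring of the matrix are not given in the sources used here. Probe positions are those of mm8 per the file headers.

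Here control spots and outlier spots were left out, spots of a probe were averaged, and log2 of the processed intensity minus the 75th percentile of the array was tested with limma 3.58.1 in R 4.3.3. A probe was tested in a tissue where the 4 arrays of some group all read it well above background. A gene was represented by its tested probe with the highest mean. Groups within a tissue were compared in fits of 12 arrays, tissues in a fit of 24 arrays, with Benjamini-Hochberg adjustment over all genes and a threshold of 0.05. The fits of G20 against NC within each tissue, and of the difference between tissues, were tested on simulated data. The other steps were not tested in this way. Precision is limited by 4 arrays in each group.

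Replicate numbers did not pair samples within a tissue: in no pair of groups did all 4 same-number correlations of deviations exceed 0.1. Between tissues they did in CC, which shares numbered sources as NC does. Named members are those called between groups, the 6 with the largest excess in each tissue, and Dnmt1 and Dnmt3a. The members and gene lists were chosen with earlier results of these data known. Alternatives were normexp correction with an offset of 50, quantile normalization, median centring, no filter, the mean of probes, the deposited matrix, the replicate block, fits of only the groups compared, and leaving out each array.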

Additional observations from a re-analysis of the deposited data

Results flagged for a closer look

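In 15 of 207 sets of 4 arrays (a member in a group and tissue), the highest or lowest array stood apart from the other 3 by Dixon's criterion at 95%; chance gives about 1 in 20. In brain these were the NC arrays of Ezh2 at 1.33, Hdac11 at -0.96 and Mbd1 at 1.53, the CC arrays of Hdac5 at 1.54 and Hells at -2.36, and the G20 arrays of Hdac11 at -0.75, Sirt1 at 4.55, Sirt2 at 1.96 and Zfp57 at -0.73. In liver they were the CC arrays of Hdac3 at 0.40, Suz12 at 2.04 and Uhrf1 at 3.37, and the G20 arrays of Ehmt2 at 4.06, Setdb1 at -0.37 and Smarca4 at 4.31. The Sirt1 array was not well above background, and the other Sirt1 probe on the same array read -0.02.

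The CC against NC difference was not the same in brain and liver for 18 members, by limma's test of the difference over 24 arrays. It was higher in brain for Dnmt1 (0.63), Ehmt1 (0.87), Ehmt2 (0.51), Hdac7 (0.90), Hdac11 (0.99), Sirt7 (0.26), Mbd1 (0.82) and Mbd3 (0.45). For Mbd1 another probe was called in the opposite direction (-0.87). It was lower in brain for Ezh2 (-0.56), Setdb1 (-0.76), Suv39h1 (-0.42), Hdac2 (-1.26), Hdac8 (-0.39), Hdac4 (-0.52), Hdac6 (-0.81), Mbd2 (-0.52), Mbd4 (-0.70) and Ctcf (-0.43).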

How the results depend on the processing

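The cause of the changes below was not tested. With normexp background correction the members called were 0 for G20 against NC in brain and 9 in liver, 15 and 1 for CC against NC, 11 and 7 for G20 against CC, and 1 and 5 for the differences between tissues of CC and of G20 against NC. The shares of all genes called with normexp were, in the same order, 0.0109% and 30.9%, 29.1% and 1.42%, 20.8% and 13.5%, and 6.34% and 34.1%. In brain, 0 members were called between G20 and NC with median centring, the deposited matrix, no filter, fits of only the groups compared, or the replicate block. With the replicate block, 1 was called in liver (Dnmt3a, 0.37, adjusted p = 0.0488), and the other counts were within 1.5 times, at 25 and 22 in brain and 13 and 14 in liver for CC against NC and G20 against CC, 31, 31 and 32 between tissues in NC, CC and G20, and 19 and 0 for the differences between tissues.

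Leaving out 1 array gave 0 to 1 members for G20 against NC in brain, in liver and in their difference, 25 to 26 and 11 to 14 for CC against NC, 22 to 23 and 13 to 17 for G20 against CC, 28 to 30, 31 to 32 and 30 to 33 between tissues in NC, CC and G20, and 17 to 21 for the difference between tissues of CC against NC. With brain G20 array 3 or 4 left out Setdb1 was called in the difference between tissues, and with liver G20 array 2 left out Dnmt3b was.

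Called members turned direction in 33 cases. With normexp these were, for brain against liver, Hdac11 -0.13, Hdac7 0.053, Hdac8 -0.55, Hdac9 -0.44 and Sirt6 -1.80 in NC, Sirt6 -0.32 in CC and Hdac5 -0.054 in G20. For CC against NC they were Hells 0.12, Mbd4 0.046 and Sirt6 1.00 in brain and Ezh1 -0.052 in liver, and for their difference between tissues Hdac8 0.46, Mbd4 0.050 and Sirt7 -0.017. For G20 against CC in liver they were Ctcf 0.14, Hdac2 -0.57, Sirt6 -1.08 and Sirt7 0.083. The mean of probes turned Dnmt3a in CC brain (0.0042), Sirt2 in CC liver (0.051), and between tissues Hdac7 (0.25 in NC, 0.20 in G20), Hdac8 (-0.23) and Sirt1 (0.23) in G20. Median centring turned, between tissues, Mbd3 (-0.086), Smarca4 (-0.17) and Trim28 (-0.14) in NC and Ehmt1 (-0.069), Mbd3 (-0.14) and Smarca4 (-0.072) in G20. Quantile normalization turned Smarca4 in brain (-0.078 for CC against NC, 0.041 for G20 against CC) and the difference between tissues of Ehmt2 (-0.018).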
